A study of Homo sapiens with 11 samples.

Results

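The 200 genes described here carry the names of genomic clones, beginning with RP11- or CTD-, and are the 200 of highest mean expression among 9825 genes so named in Jurkat cells. They were chosen by name and by mean normalised count from the 44416 genes of the authors' deposited comparison table; 178 have RP11- names and 22 have CTD- names. The mean count chose them, so their levels are a description. That mean is taken over all 9 poly(A) libraries, treated ones included, so a change with treatment can bring a gene over the limit. The DMSO means of RP11-196G18.22 and RP11-500C11.3, given below, were under that limit, and so was the dieldrin mean of CTD-3184A7.4. Jurkat E6-1 is an established line from a human T cell leukaemia, grown in RPMI-1640 with fetal bovine serum. Poly(A)-enriched RNA was sequenced from cells held for 30 min in DMSO vehicle, in 100 µM dieldrin, an organochlorine insecticide, or in 100 µM PMA, a phorbol ester that activates protein kinase C, with 3 libraries in each group. The PMA dose is given as labelled and is far above common use. For 1 further DMSO and 1 further dieldrin library, made from RNA depleted of ribosomal RNA, the authors deposited lists of sites of divergent transcription. Whether the 3 libraries of each treatment were grown as separate cultures is not stated, and the p-values reflect only how far these libraries differ. The table holds means and changes and no values per library, and the depth of each library is unknown here. All 11 T cell markers looked up were at 1 CPM or more. CPM is a gene's share of the summed means, and 1 CPM equals a mean of 83.7 counts. The myeloid, erythroid and epithelial markers were all below 1 CPM, while CD79A of the B cell list reached 34.6 CPM. In the fibroblast list VIM reached 887 CPM, and COL1A1 was also above 1 CPM.

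A clone name was given to a transcript found by annotators on a sequenced bacterial artificial chromosome before the gene had a name of its own; RP11 stands for a Roswell Park library and CTD for a California Institute of Technology library. Most such transcripts are long noncoding RNAs or pseudogenes. At many mammalian promoters RNA polymerase II starts in both directions, and the RNA made backwards, upstream of and antisense to the gene, is usually short-lived, being ended early by the cleavage and polyadenylation and Integrator machineries and destroyed by the nuclear exosome. Some are spliced, polyadenylated and long-lived enough to be annotated, often with the suffix -DT for divergent transcript or -AS for antisense. Processed pseudogenes are reverse-transcribed copies of messenger RNAs, and reads from the parent gene can align to them.

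The label noncoding held for most of the 200 and not for all. By gene ID, 165 matched the GENCODE v29 annotation, which calls 117 of them noncoding RNA of some kind, among them 54 antisense RNAs and 42 lincRNAs. A further 38 are pseudogenes, 23 of them of the processed kind, and 10 are now annotated as protein-coding. The protein-coding members include RP11-622K12.1, now NBDY, which encodes a microprotein of the messenger RNA decapping complex, with a mean count of 3100, and RP11-139H15.1, now PIGBOS1, a mitochondrial outer membrane microprotein, with a mean count of 875. Others are RP11-169K16.7, now UQCRHL, a relative of a complex III subunit, and RP11-108K14.4, now SCART1, of the scavenger receptor family. Of the 35 genes without a match, 26 start inside or just past the end of another gene on the same strand. In the table of current gene names, 104 of the 200 now have another symbol.

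The sequences at the starts of 4 members that the results turn on are shown first. SNHG19 (RP11-304L19.5), a small nucleolar RNA host gene, and PSMA3-AS1 (RP11-349A22.5) had the highest means among members that start upstream of and opposite to a neighbour. MHENCR (CTD-3184A7.4) is such a member that changed with dieldrin, and NUP153-AS1 (RP11-500C11.3) starts just inside its opposite neighbour and changed with PMA. Each stretch runs from 250 bases before to 50 bases after the start, from RefSeq on GRCh38.p14, on the strand of the gene. The regions are chr16:2155309-2155608 (minus strand), chr14:58298088-58298387 (minus strand), chr20:63626985-63627284 (plus strand) and chr6:17705880-17706179 (plus strand). Capitals mark matches, on either strand, to the GC box GGGCGG, the CCAAT box and the TATA motif TATAAA, which were the only motifs of the 7 searched with a match here.
SNHG19: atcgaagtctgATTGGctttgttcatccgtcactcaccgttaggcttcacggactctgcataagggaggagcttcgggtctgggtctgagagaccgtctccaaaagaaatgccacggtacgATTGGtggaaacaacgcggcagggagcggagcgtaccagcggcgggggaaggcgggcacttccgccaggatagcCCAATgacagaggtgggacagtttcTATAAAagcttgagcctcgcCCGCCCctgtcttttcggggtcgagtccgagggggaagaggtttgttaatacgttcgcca
PSMA3-AS1: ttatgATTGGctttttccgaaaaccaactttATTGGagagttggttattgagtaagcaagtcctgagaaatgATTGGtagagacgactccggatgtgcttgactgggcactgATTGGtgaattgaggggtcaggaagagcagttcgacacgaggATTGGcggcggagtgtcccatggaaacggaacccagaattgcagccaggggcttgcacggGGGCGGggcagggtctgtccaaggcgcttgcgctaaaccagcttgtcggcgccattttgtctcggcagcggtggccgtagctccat
MHENCR: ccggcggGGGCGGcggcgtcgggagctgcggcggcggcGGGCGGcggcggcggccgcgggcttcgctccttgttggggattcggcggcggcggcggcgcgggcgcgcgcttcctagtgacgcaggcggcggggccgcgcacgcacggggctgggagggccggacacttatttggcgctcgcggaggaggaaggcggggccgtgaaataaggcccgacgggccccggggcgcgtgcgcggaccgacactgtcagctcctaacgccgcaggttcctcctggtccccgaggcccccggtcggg
NUP153-AS1: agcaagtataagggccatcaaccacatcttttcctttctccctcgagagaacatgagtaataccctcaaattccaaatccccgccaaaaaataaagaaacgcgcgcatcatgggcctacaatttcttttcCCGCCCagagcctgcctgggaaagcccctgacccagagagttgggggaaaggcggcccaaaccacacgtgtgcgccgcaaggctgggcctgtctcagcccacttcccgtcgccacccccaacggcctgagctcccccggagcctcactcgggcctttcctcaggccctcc

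SNHG19 held 3 CCAAT boxes, 1 TATAAA and 1 GC box, PSMA3-AS1 held 5 CCAAT boxes and 1 GC box, MHENCR held 2 GC boxes and NUP153-AS1 held 1. CpG dinucleotides numbered 53 in the 300 bases of MHENCR, against 23, 17 and 15 in those of SNHG19, PSMA3-AS1 and NUP153-AS1. A RefSeq promoter was matched by symbol for 57 members, and the 29 of these that start within 1 kb of an opposite start were GC-rich, with a median of 69.7% G and C and 30 CpG against 58.3% and 14 over all 27305 promoters of the table. GGGCGG was found in 66.7% of the 57, in 82.8% of the 29 and in 44.6% of all promoters, counting both strands. CCAAT was found in 35.1% of the 57 and 35.7% of all, TATAAA in 5.26% and 12.0%, the ETS core CCGGAA in 22.8% and 17.6%, the AP-1 motif TGANTCA in 5.26% and 7.76%, the EGR motif GCGTGGGCG in 1.75% and 0.784%, and the cyclic AMP response element TGACGTCA in 0 of the 57 and 1.98% of all. The GC box can share bases with the EGR motif, though no match overlapped in the 4 sequences shown. These are matches of letters in a window and not sites of binding.

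The processed pseudogenes are shown beside their parents because the likeness bears on what their counts mean. HMGB1P6 (RP11-673C5.1) is a copy of HMGB1, which encodes a chromatin protein, and RPL29P4 (RP11-632C17__A.1) is a copy of RPL29, which encodes a protein of the large ribosomal subunit. The lines give 80 bases of each transcript from GENCODE v29, taken where pseudogene and coding part of the parent differ most, at bases 153 to 232 of HMGB1P6, 319 to 398 of HMGB1, 247 to 326 of RPL29P4 and 341 to 420 of RPL29. Capitals mark the bases that differ, 7 of 80 in the first pair and 5 of 80 in the second.
HMGB1P6: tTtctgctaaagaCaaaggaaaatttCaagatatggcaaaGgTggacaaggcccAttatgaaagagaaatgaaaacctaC
HMGB1: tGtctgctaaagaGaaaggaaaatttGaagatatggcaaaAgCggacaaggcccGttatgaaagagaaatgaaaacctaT
RPL29P4: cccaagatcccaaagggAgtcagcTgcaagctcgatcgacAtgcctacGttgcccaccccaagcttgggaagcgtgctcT
RPL29: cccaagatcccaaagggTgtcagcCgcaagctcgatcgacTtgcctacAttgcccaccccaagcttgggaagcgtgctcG

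Over their best alignments HMGB1P6 was 98.1% identical to HMGB1 and RPL29P4 was 97.3% identical to RPL29. Near-identical copies, of at least 95% identity over at least 100 bases, covered at least 50% of the transcript in 33 of the 165 members with a transcript, 30 of them among the 38 pseudogenes. At the other end, 110 had no such stretch. How the authors counted reads that align in several places is not stated, and the levels and changes of these members are uncertain.

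Mean counts of the members ran from 345 to 14697 with a median of 642, which is 4.12 to 176 CPM with a median of 7.67. Together the 200 held 0.255% of all counts and 63.7% of the counts of clone-named genes. The edge of the set was not a gap: RP11-723O4.9, RP11-872J21.3 and RP11-690G19.3 were the last inside, with 351, 349 and 345.3 counts, and RP11-167N4.2, RP11-206L10.9 and RP11-283I3.6 the first outside, with 345.2, 344.8 and 344.3. RP11-872J21.3, now PAPOLA-DT, is the partner of the poly(A) polymerase gene PAPOLA, which had 14150 counts, and RP11-690G19.3 lies downstream of the F-box gene FBXL20, which had 483. HMGB1P6 led with group means of 14527 in DMSO, 14801 with dieldrin and 14764 with PMA, and its parent HMGB1 stood at 71669, 71242 and 71313. Group means here are those implied by the authors' overall mean and unshrunken fold changes. RPL29P4 stood at 6744, 6807 and 6693 counts in the same order, while RPL29 stood at 94825, 94169 and 95669. These copies and their parents were level across the groups.

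The highest member that is not a near-identical copy was RP11-620J15.3, now the long noncoding RNA GIHCG on chromosome 12 (58325311 to 58329958, minus strand, hg19), at 7355, 7238 and 7111 counts in DMSO, dieldrin and PMA. SCART1 stood at 4944, 4790 and 5272 counts. RP11-220I1.1, which matched no annotation, stood at 5067, 5159 and 5195. PSMA3-AS1 stood at 4334, 4471 and 4454 counts, and its name-giving neighbour PSMA3, a proteasome subunit gene, at 26489, 25699 and 26319. SNHG19 stood at 5010, 3996 and 5314; its unshrunken log2 change of -0.33 with dieldrin did not pass in the authors' deposited table (adjusted p = 0.417). RP11-159D12.2, which starts 8510 bases past the end of the splicing factor gene SRSF1 (31512, 29855 and 31600 counts), stood at 3780, 4151 and 4961, and its log2 change of 0.39 with PMA had an adjusted p of 0.0897 in that table. RP11-423H2.1, a pseudogene whose transcript is 99.6% identical to THOC3 of the THO messenger RNA export complex, stood at 3937, 4061 and 3940. RP11-473I1.10, inside C16orf72 in sense, stood at 3797, 3487 and 3823, and C16orf72 at 3352, 3923 and 3682. None of the 10 members of highest mean changed by the test in either comparison.

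Per kb of annotated exon the 165 matched members ran from 36.1 to 22751 mean counts with a median of 369. The highest were 4 processed pseudogenes and SNHG19: HMGB1P6 at 22751 counts per kb, CTD-2031P19.4 at 15784, RPL29P4 at 14236, SNHG19 at 13957 and RPS27P3 (RP11-543P15.1) at 7909. The annotated exon of CTD-2031P19.4 is only 78 bases in v29, although the table gives it 399 bases on hg19, so its value per kb is uncertain. Other members differ too: RP11-473I1.10 has 8334 exonic bases in v29 and a whole span of 5941 bases on hg19. Values per kb, here and against neighbours below, thus rest on gene models that can differ from those counted. RPS27P3 was 99.6% identical to RPS27, another ribosomal protein gene. The lowest were long noncoding RNAs and a coding gene of many exonic bases: RP11-295P9.3 at 36.1 counts per kb, GVQW3 (RP11-111M22.2) at 39.8, NUTM2B-AS1 (RP11-773D16.1) at 43.2, RAB33B-AS1 (RP11-83A24.2) at 45.6 and LINC03072 (RP11-212P7.2) at 61.5. Their neighbours had overall mean counts of 986 for the splicing factor gene PRPF18 beside RP11-295P9.3, 12387 for PRKRIR beside GVQW3 and 1122 for RAB33B, of a Golgi GTPase, beside RAB33B-AS1. IL6ST, the gene of the receptor subunit gp130, beside CTD-2031P19.4, had 878 counts and TSPAN9, a tetraspanin gene beside RPS27P3, 113. None of these neighbours passed in either comparison.

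**Figure D1:**
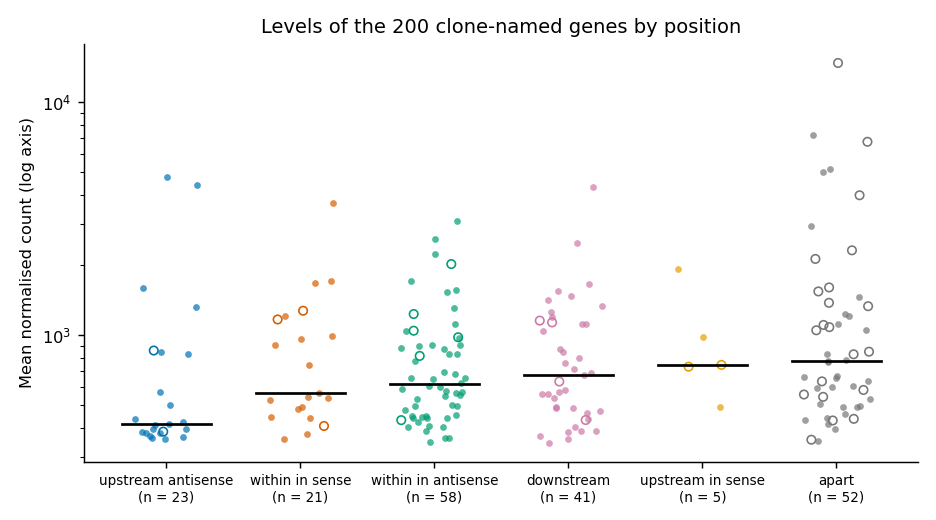
Mean normalised count (log axis) of each of the 200 clone-named genes by position relative to the nearest neighbour gene; points are genes, open circles are annotated pseudogenes and black lines are medians. Genes that start upstream antisense have a median of 414 counts and genes apart from any neighbour a median of 771, and the ranges overlap.

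Position was read from the hg19 coordinates of the same table, against genes that are not clone-named and had a mean of at least 10 counts. By strand, 89 members lie on the plus strand and 111 on the minus strand. A neighbour was found for 148 members, and 134 of those neighbours are protein-coding. The commonest class was within in antisense, a member that overlaps a neighbour on the opposite strand, with 58 members (29%). Another 23 members (11.5%) were upstream antisense, starting on the opposite strand up to 5 kb before the neighbour's start, at a median of 154 bases. Within in sense, on the same strand and starting inside the neighbour, were 21 members (10.5%), and 41 (20.5%) were downstream, starting on the same strand up to 10 kb past its end. Only 5 (2.5%) ended up to 5 kb before a neighbour's start on the same strand, and 52 (26.0%) lay apart. More than a single class applied to 44 members, and the order above, upstream antisense ahead of within in sense ahead of within in antisense, decided their class.

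The line between upstream antisense and within in antisense was often a short stretch of DNA. Starts within 1 kb of an opposite start numbered 37, of which 20 were upstream of it and 17 inside it, at median positions of -138.5 and 275 bases from it. Within 500 bases on either side there were 31. SCAMP1-AS1 (CTD-2037K23.2) began 8 bases upstream of SCAMP1, which encodes a secretory carrier membrane protein, and RNF121, a ubiquitin ligase gene, lay 47 bases from XNDC1N (RP11-849H4.2). Divergent transcripts by name included ZDHHC12-DT, EMSY-DT (RP11-111M22.3), MARCHF6-DT (CTD-2256P15.2), MTA1-DT (RP11-521B24.3), NCK1-DT (RP11-85F14.5), SP2-DT (RP11-6N17.4), PRKACB-DT (RP11-486G15.2) and B4GAT1-DT (RP11-867G23.8). Their starts lay between 83 and 338 bases from those of their partners.

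**Figure D2:**
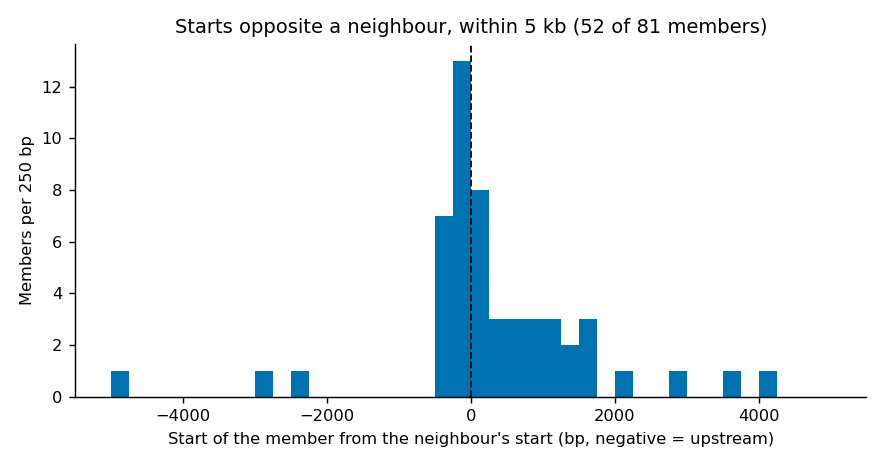
Position of member starts relative to the start of the opposite-strand neighbour (bp, negative upstream), as the number of members per 250 bp within 5 kb. The starts crowd around 0, where 37 members lie within 1 kb on either side.

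Upstream antisense members were below their neighbours at the median, with wide variation. Per kb of exon their mean count was at a median of 59.1% of the neighbour's (n = 23), and 10 of 23 exceeded it. SNHG19 reached 650% of TRAF7, a ubiquitin ligase gene 340 bases away, and PSMA3-AS1 reached 186% of ARID4A, a chromatin gene 251 bases away. TRAF7 stood at 9857, 9376 and 9694 counts in DMSO, dieldrin and PMA and ARID4A at 2335, 2580 and 2376, neither passing in either comparison. MTA1-DT stood at 10.6% of MTA1, a chromatin remodelling subunit gene, and GVQW3 at 2.48% of PRKRIR, both per kb. For the 37 members that start within 1 kb of an opposite start, the median was 42.3% per kb. Within in antisense the median was 79.6% per kb (n = 56), downstream 29.5% (n = 24) and within in sense 193% (n = 11), the last on the few members with an annotated length. As mean counts not scaled by length, the medians were 19.6% of the neighbour upstream antisense, with 5 of 23 above it, and 35.9% within in sense, with 7 of 21 above it, so the order within in sense turns on the scaling.

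Overlap with other genes touches these values. Of the 200 members, 43 overlapped another gene of the table with a mean of at least 10 on the same strand and 74 on the opposite strand, 104 on either. For 21 the gene in sense had the larger mean. Whether the authors' counting used strand is not given in the sources used here, and reads of a member and of the gene over it cannot be told apart from these values.

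With dieldrin, 7 of the 200 members passed the authors' test at an adjusted p under 0.05, 2 higher and 5 lower. That is 3.5%, beside 2.30% of all 19280 genes tested in that comparison and 2.94% of the 10297 genes without a clone name and with a mean at least that of the lowest member. In the higher direction it is 1% of members beside 1.28% of all, and in the lower direction 2.5% beside 1.02%. All 200 members had an adjusted p. At an unadjusted p under 0.05 there were 11 higher and 18 lower, beside 876 higher and 736 lower of all 19280 genes tested. The median unshrunken log2 change of the members was 0.0007, near the 0.0019 of all genes tested, and the middle 50% of members lay between -0.092 and 0.10. No member changed 2-fold, beside 46 of the 10297 genes without a clone name of at least the lowest member's mean. From these bulk libraries, a change in RNA per cell and a change in the share of cells that hold it cannot be told apart.

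RP11-18I14.10, now C10orf95-AS1, had the smallest adjusted p among the falls with dieldrin. It lies on chromosome 10 (104209574 to 104220863, plus strand, hg19) and is a processed transcript that spans the whole of C10orf95, 1707 bases in the table, on the opposite strand. Its group means were 3056 counts in DMSO, 1985 with dieldrin and 2683 with PMA. The dieldrin mean lay well below the other groups. In the authors' deposited table the unshrunken log2 change with dieldrin was -0.62 and the shrunken change -0.51 (SE 0.0868, adjusted p = 6.12e-07). C10orf95 was scarce, at 30.7, 14.9 and 17.3 counts, and its change did not pass in that table (adjusted p = 0.922). TMEM180, which starts 286 bases past the end of RP11-18I14.10 on the same strand, stood at 2778, 2656 and 2730.

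CTD-3184A7.4, now MHENCR, a long noncoding RNA described in melanoma, starts 186 bases upstream of GMEB2 on the opposite strand (chromosome 20, 62258580 to 62260177, plus strand, hg19); its promoter is the CpG-rich sequence above. GMEB2 encodes a DNA-binding protein of glucocorticoid-responsive genes. Counts for MHENCR were 531 in DMSO, 341 with dieldrin and 363 with PMA, and both treatments lay below DMSO. The authors' deposited table gave an unshrunken log2 change of -0.64 and a shrunken change of -0.44 (SE 0.107, adjusted p = 0.00371) with dieldrin, and an unshrunken change of -0.55 with PMA that did not pass (adjusted p = 0.0694). GMEB2 stood at 2064, 2146 and 2096 counts, level across the groups.

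RP11-324I22.4, now CCNY-AS1, lies wholly inside CCNY on the opposite strand (chromosome 10, 35603480 to 35625329, minus strand, hg19). CCNY encodes cyclin Y. CCNY-AS1 stood at 715 counts in DMSO, 518 with dieldrin and 531 with PMA, low in both treatments. In the authors' deposited table it fell with both: the shrunken log2 change was -0.37 (SE 0.0936, adjusted p = 0.00607) with dieldrin and -0.34 (SE 0.0937, adjusted p = 0.0487) with PMA. The PMA call ends when the adjustment runs over every gene with a p-value (adjusted p = 0.120). Both comparisons share their DMSO libraries. CCNY stood at 17904, 17452 and 17779 counts, far above its antisense partner and level across the groups.

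The remaining falls with dieldrin were in members that follow or lie in a neighbour on its own strand and matched no annotation. CTD-3074O7.12 lies wholly inside ZDHHC24, a palmitoyltransferase family gene (chromosome 11, 66303369 to 66305407, minus strand, hg19), and stood at 600 counts in DMSO, 442 with dieldrin and 567 with PMA. Its shrunken log2 change with dieldrin was -0.35 (SE 0.0906, adjusted p = 0.00687) in the authors' deposited table, and that of ZDHHC24, at 3012, 2662 and 2869 counts, did not pass. RP11-611L7.1 starts 253 bases past the end of ZNF316, a zinc finger gene (chromosome 7, 6694495 to 6696063, plus strand, hg19), and stood at 1748, 1431 and 1765 counts. Its shrunken change with dieldrin, -0.25 (SE 0.0773, adjusted p = 0.0498), was at the edge of the threshold in that table and did not pass when adjusted over every gene with a p-value (adjusted p = 0.110). ZNF316 stood at 1285, 1101 and 1313 counts, with an unshrunken change of -0.22 that did not pass, beside -0.29 for the member.

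RP11-196G18.22, now H2BC20P, rose most with dieldrin. It is a histone H2B pseudogene in a histone gene cluster on chromosome 1 (149816065 to 149820591, minus strand, hg19) and starts 1169 bases past the end of HIST2H2BC. Its counts were 340 in DMSO, 632 with dieldrin and 324 with PMA, so only dieldrin stood apart. The DMSO and PMA means lie below the 345 counts of the lowest member. It is thus in the set through its dieldrin level, and its rise is not independent of the choice. The authors' deposited table gave an unshrunken log2 change of 0.89 and a shrunken change of 0.59 (SE 0.111, adjusted p = 1.81e-05). HIST2H2BC was scarce, at 16.5, 60.0 and 18.5 counts, and rose by 1.86 on the unshrunken log2 scale (adjusted p = 5.56e-06) in that table. RP11-196G18.24, a clone-named gene of lower rank that overlaps 14.8% of H2BC20P on the opposite strand, stood at 200 counts in DMSO, 397 with dieldrin and 181 with PMA and also rose with dieldrin in that table (adjusted p = 0.000214). HIST2H2BD, 965 bases past the end of H2BC20P on the opposite strand, stood at 8.68, 23.4 and 8.96 counts and did not pass (adjusted p = 0.131). The neighbouring rows thus shared the higher dieldrin level, and GENCODE v29 gives the ID of H2BC20P the name HIST2H2BC, so which of these rows the reads belong to is uncertain.

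RP11-345J4.8, now SMG1P2, is a pseudogene of SMG1, the kinase of nonsense-mediated decay, on chromosome 16 (29538889 to 29606395, minus strand, hg19). It stood at 696 counts in DMSO, 1033 with dieldrin and 753 with PMA. The dieldrin mean was the highest by some way, and the authors' deposited table gave a shrunken log2 change of 0.48 (SE 0.0845, adjusted p = 2.16e-06). Its whole transcript lies in copies, 99.8% identical to SMG1P5, with near-identical stretches in 12 genes. SMG1 itself stood at 6408, 5874 and 6372 counts, with an unshrunken change of -0.13 with dieldrin that did not pass in that table. RP11-296I10.6, now SMG1P7 and also a member, stood at 1194, 999 and 1268 counts. Its unshrunken change of -0.26 with dieldrin, of the opposite sign, did not pass (adjusted p = 0.879). SMG1P1, a further SMG1 pseudogene outside the set, was scarce, at 72.8, 109 and 69.6 counts. Its unshrunken change with dieldrin was 0.58, near the 0.57 of SMG1P2, and did not pass in that table (adjusted p = 0.160).

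With PMA, 3 of the 200 members passed, 2 higher and 1 lower. That is 1.5%, beside 0.619% of all 17612 genes tested and 0.719% of the other genes of at least that mean; in the higher direction 1% beside 0.528%, and in the lower direction 0.5% beside 0.0908%. At an unadjusted p under 0.05 there were 6 higher and 8 lower, beside 396 higher and 261 lower of all 17612 genes tested. The median unshrunken log2 change of the members was -0.043 against -0.0044 over all genes tested. The lower of the 3 was CCNY-AS1, described above. With the Wald statistic divided by its own spread, 12 members passed with PMA, 6 higher and 6 lower, beside 2.84% of all genes tested; MHENCR (adjusted p = 5.38e-05) and RP11-159D12.2 (adjusted p = 9.82e-05) were then among them.

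RP11-199F11.2 rose with PMA and had the smallest adjusted p of any member in either comparison. It stood at 664 counts in DMSO, 755 with dieldrin and 1292 with PMA. The PMA mean was close to 2-fold that of DMSO, and the authors' deposited table gave an unshrunken log2 change of 0.96 and a shrunken change of 0.73 (SE 0.0997, adjusted p = 2.20e-10). With dieldrin the unshrunken change of 0.18 did not pass in that table (adjusted p = 0.935). The gene is not in GENCODE v29, and its reads can be shared with overlapping genes.

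RP11-500C11.3, now NUP153-AS1, starts 168 bases inside NUP153, a nuclear pore gene, on the opposite strand (chromosome 6, 17706488 to 17707575, plus strand, hg19). Counts were 331 in DMSO, 427 with dieldrin and 561 with PMA, and DMSO was the lowest. The DMSO mean lies below the 345 counts of the lowest member. NUP153-AS1 is thus in the set through its treated groups, and its rise is not independent of the choice. With PMA the authors' deposited table gave an unshrunken log2 change of 0.76 and a shrunken change of 0.45 (SE 0.114, adjusted p = 0.0198), whereas the dieldrin change of 0.37, unshrunken, did not pass (adjusted p = 0.683). NUP153 stood at 9084, 9251 and 9284 counts, level across the groups.

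**Figure D3:**
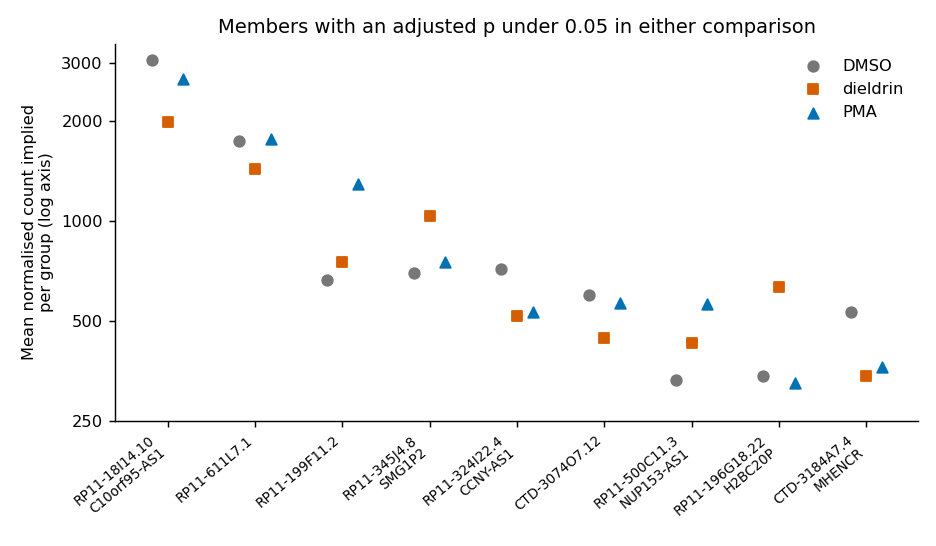
Mean normalised count implied for each group (log axis) of the 9 members that passed in either comparison; circles are DMSO, squares dieldrin and triangles PMA, and no error is drawn because the table holds no values per library. RP11-199F11.2 is at 1292 with PMA against 664 in DMSO, and RP11-196G18.22 at 632 with dieldrin against 340.

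Set directly against each other, dieldrin and PMA differed for 2 members, 1% beside 0.494% of all 17612 genes tested. RP11-199F11.2 was lower with dieldrin than with PMA, by -0.59 on the shrunken log2 scale (SE 0.141, Benjamini-Hochberg adjusted p = 0.00815, normal test of the difference). RP11-196G18.22 was higher with dieldrin, by 0.63 (SE 0.157, adjusted p = 0.0155), though its dieldrin level also brought it into the set. For the other 7 members that passed in either comparison, this difference did not pass; that of MHENCR was -0.061 (SE 0.151) and that of CCNY-AS1, which passed in both, -0.030 (SE 0.132). Both changes are taken against the same DMSO libraries, and the test treats them as independent. With a correlation of 0.5 between the changes, 9 members differed, and RP11-18I14.10, RP11-611L7.1 and RP11-345J4.8 were then among them. The share of all genes that pass with this correlation is not given here, so these 9 have no background beside them.

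Some members lie beside a gene that changed with treatment. Of the 148 members with a neighbour, 8 had a neighbour that passed in either comparison, and 1 of these 8 members, H2BC20P, passed as well, where 3.5% of all members passed with dieldrin and 1.5% with PMA. TNFAIP3, which encodes the A20 inhibitor of NF-kappa-B signalling, stood at 1953 counts in DMSO, 3429 with dieldrin and 4818 with PMA, whereas RP11-356I2.4, now WAKMAR2, which starts 1019 bases inside it on the opposite strand, stood at 691, 745 and 656. In the authors' deposited table the TNFAIP3 unshrunken log2 changes were 0.81 with dieldrin (adjusted p = 2.58e-08) and 1.30 with PMA (adjusted p = 1.75e-22), and those of WAKMAR2 were 0.11 and -0.07, neither of which passed. TNFAIP3 thus rose in both comparisons and WAKMAR2 passed in neither; the difference between the genes was not tested.

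NPAS4, an immediate-early transcription factor gene, stood at 187 counts in DMSO, 709 with dieldrin and 210 with PMA, an unshrunken log2 change of 1.92 with dieldrin in the authors' deposited table (adjusted p = 2.45e-50). RP11-867G23.10 ends 3867 bases before NPAS4 on the same strand and stood at 431, 633 and 411 counts. Its change of 0.56 with dieldrin did not pass (adjusted p = 0.0706) in that table. MARCH6, an endoplasmic reticulum ubiquitin ligase gene, fell by 0.30 with dieldrin (adjusted p = 0.00303) while MARCHF6-DT, which starts 102 bases away, was at 0.003. B3GNT1, a glycosyltransferase gene, fell by 0.43 with dieldrin (adjusted p = 0.000733) and B4GAT1-DT, 258 bases away, was at -0.05. WDR47 and INTS6 rose with dieldrin by 0.29 (adjusted p = 0.0225) and 0.27 (adjusted p = 0.0143) and PCF11 rose with PMA by 0.37 (adjusted p = 0.0207), all unshrunken log2 values of the authors' table. The members inside them, RP11-20O24.4, RP11-24B19.3 and RP11-727A23.11, were at -0.02 and -0.06 with dieldrin and -0.18 with PMA, and none of these passed.

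Over all 148 pairs, Pearson's r between the unshrunken log2 change of the member and that of its neighbour was 0.47 with dieldrin and Spearman's rho was 0.20. With PMA they were 0.20 and 0.15. These describe pairs whose changes come from the same libraries and the same DMSO means. The dieldrin value was 0.42 without RP11-867G23.10 and NPAS4, with the pair of RP11-196G18.22 and HIST2H2BC still in it. In the downstream class it was 0.59 (n = 41) and 0.0002 without RP11-196G18.22, and in the upstream antisense class 0.47 (n = 23) and 0.18 without RP11-290D2.6, whose neighbour SNORA31 had a mean of 47.3 counts. In these 2 classes a single pair thus carried much of r, while Spearman's rho was 0.046 downstream and 0.36 upstream antisense. Within in antisense, r with dieldrin was 0.29 (n = 58) and 0.087 without RP11-18I14.10. With PMA, r upstream antisense was 0.57 and -0.027 without RP11-290D2.6.

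**Figure D4:**
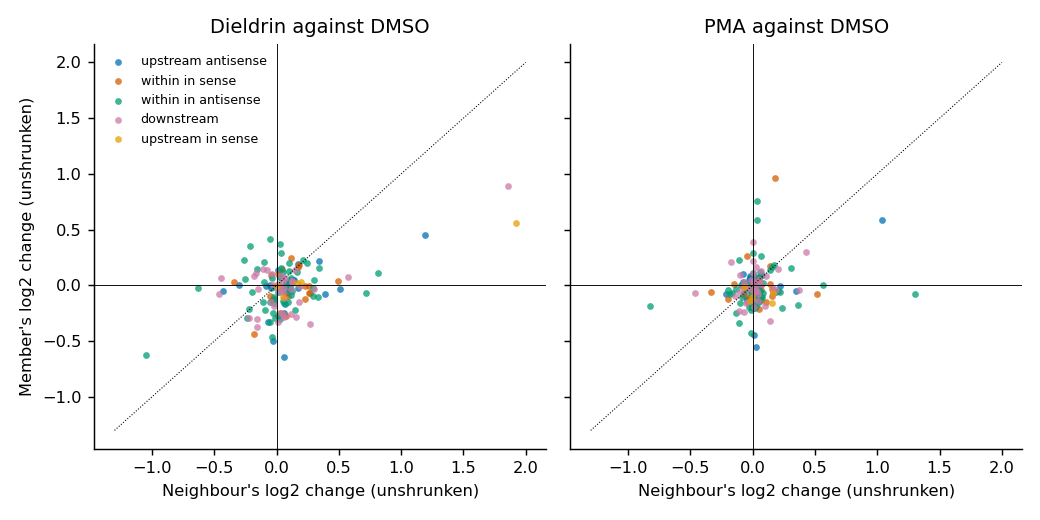
Unshrunken log2 change of each member against that of its neighbour, with dieldrin (left) and PMA (right), for the 148 members with a neighbour; points are coloured by position, and the dotted line marks equal change. Most points lie near 0 on both axes, and the neighbours with large changes, such as NPAS4 at 1.92 and TNFAIP3 at 1.30, sit well below the dotted line.

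Genes that end and destroy short-lived noncoding RNA were looked up as a list of 52 symbols, of which 48 were found and tested. The list holds both an older and a newer symbol for some genes, such as SKIV2L2 and MTREX. A symbol not found is thus not always a gene that is missing. With dieldrin 2 rose, INTS6 of the Integrator complex, given above, and ZCCHC8 of the nuclear exosome targeting complex, with an unshrunken log2 change of 0.32 (adjusted p = 0.0212) in the authors' deposited table. With PMA 1 rose, the termination factor gene PCF11. Of all genes tested, 1.28% passed in the higher direction with dieldrin and 0.528% with PMA. None passed in the lower direction in either comparison. In either direction, 3 genes of the list with dieldrin and 1 with PMA had an unadjusted p under 0.05. Over all genes these were 876 higher and 736 lower of 19280 with dieldrin, and 396 and 261 of 17612 with PMA. The list's median log2 change was 0.020 with dieldrin and 0.019 with PMA, beside 0.0019 and -0.0044 over all genes tested.

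Sites of divergent transcription were read from lists of 113689 sites in the DMSO library and 118474 in the dieldrin library. Within 1 kb of the start, 137 members (68.5%, exact 95% interval 61.6 to 74.9) had a site in the DMSO list and 139 (69.5%, 62.6 to 75.8) in the dieldrin list. The intervals cover counting error only, and with 1 library per list there is no test. Among genes without a clone name of at least the same mean the shares were 82.0% and 81.9% (n = 10291), over all tested genes 65.0% and 64.7%, and among genes with no adjusted p for dieldrin 9.23% and 9.43%. Both lists held a site for 128 members, 9 had a site only in the DMSO list, 11 only in the dieldrin list and 52 in neither.

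The share differed by position. Upstream antisense members had a site in 91.3% of cases in each list (21 of 23) and members within in antisense in 87.9% and 89.7%. Members apart from any neighbour had a site in 63.5% and 65.4%, those within in sense in 47.6% and 52.4%, and downstream members in 43.9% in each list. Of the 37 members that start within 1 kb of an opposite start, 36 had a site in each list. By type, lincRNAs had a site in 81.0% and 83.3%, antisense RNAs in 77.8% and 74.1% and the unmatched members in 40% in each list. Processed pseudogenes had a site as often, in 78.3% in each list (n = 23), and pseudogenes of all kinds in 68.4% and 73.7% (n = 38). Among the 9 members that passed a test, RP11-611L7.1 had a site in neither list, RP11-196G18.22 had a site in the dieldrin list only, and the other 7 had a site in both.

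**Figure D5:**
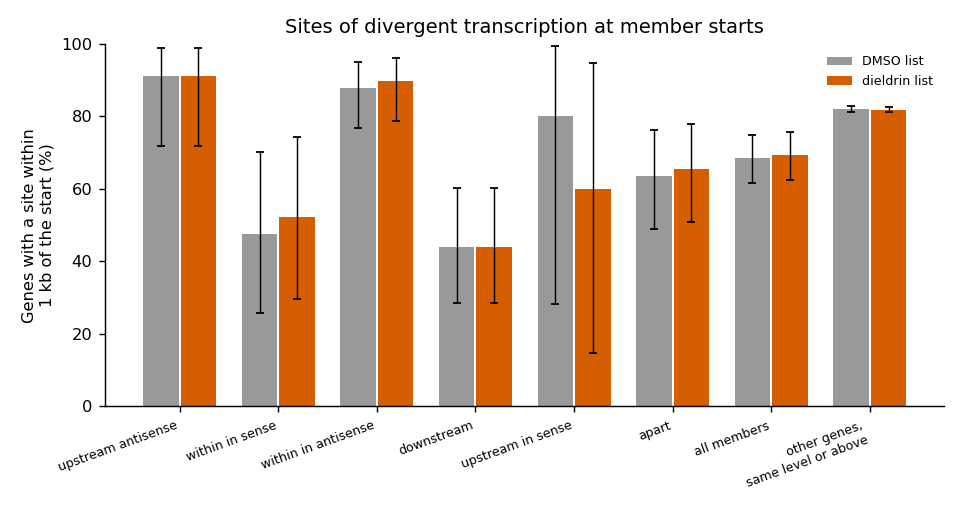
Share of genes with a site of divergent transcription within 1 kb of the start (%), in the DMSO list (grey) and the dieldrin list (orange), by position of the member, for all 200 members and for 10291 other genes of at least the same mean; error bars are exact 95% binomial intervals. Upstream antisense members reach 91.3% and downstream members 43.9%.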

How the data were processed

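Poly(A) RNA of Jurkat E6-1 cells was sequenced after 30 min with DMSO, dieldrin or PMA (3 libraries each), and RNA depleted of ribosomal RNA in 1 DMSO and 1 dieldrin library. STAR, edgeR and hg19 are named in the submitters' processing notes, without settings. Not given in the sources used here are the counting tool, its treatment of strand and of reads with several alignments, the annotation release and the site caller. Per the file headers, each comparison of the authors holds a mean normalised count (signal), log2 fold changes with and without shrinkage, an SE that belongs to the shrunken log2 change, the Wald statistic (score), a p-value and an adjusted p. The authors' column names match DESeq2 output with shrinkage, per the file headers, while edgeR is what the notes name. No values per library were used, no count model was fitted, and the authors' test was taken at an adjusted p under 0.05. The authors' deposited site lists hold positions with no score.

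The members and lists were chosen with earlier results of these data known. Group means were solved from the mean, taken over the 9 libraries, and the 2 unshrunken changes. For dieldrin against PMA, the shrunken changes were subtracted, divided by the root of the summed squared SEs and referred to the normal distribution, two-sided, with Benjamini-Hochberg adjustment over all genes adjusted in both comparisons. The covariance from the shared DMSO libraries was left out, which by itself enlarges the error. Types, exon lengths and transcripts came by gene ID from GENCODE v29 (41842 of 44416 matched), and copies from blastn 2.17.0. RefSeq promoters on GRCh38.p14 were matched by symbol. Named were all members called, the 10 of largest mean, the 3 inside and 3 outside the rank limit, the 5 highest and 5 lowest per kb, members that differed between treatments, and their neighbours, 1 of which is not reported here; up to 5 genes of the RNA decay list were also named. Other members and neighbours, HMGB1, RPL29, RPS27, SMG1, SMG1P1, SMG1P7, THOC3 and PSMA3 were chosen after their values were seen. The steps were tested on simulated data. Alternatives were other thresholds, adjustments, member numbers, neighbour rules and site windows, and, chosen after seeing the data, leaving out members in near-identical copies. The tools were matplotlib 3.10.9, scipy 1.17.1, pandas 2.3.3 and numpy 2.4.6 under Python 3.11.15.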

Additional observations from a re-analysis of the deposited data

Results flagged for a closer look

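RP11-199F11.2 differed between dieldrin and PMA by -0.59 on the shrunken log2 scale (adjusted p = 0.00815, test of the difference itself): its shrunken change was 0.14 with dieldrin and 0.73 with PMA. Without the prior the changes were 0.18 and 0.96.

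RP11-196G18.22, the H2B pseudogene H2BC20P, differed by 0.63 in the other direction (adjusted p = 0.0155), with shrunken changes of 0.59 with dieldrin and -0.043 with PMA. Its neighbour HIST2H2BC and the overlapping RP11-196G18.24 passed with dieldrin and did not pass with PMA.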

How the results depend on the processing

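No paired analysis was possible because the table holds no values per library, and for the same reason no library could be left out. The 7 dieldrin calls became 0 with a further 2-fold limit, 3 among the first 100 members and 24 among 400. They became 9 with the Wald statistic divided by its own spread, where 2.96% of all genes tested then passed, in place of 2.30%. The 3 PMA calls became 1 at an adjusted p under 0.01, 5 at 0.1, 0 with the 2-fold limit, 1 among 100 members and 6 among 400. With the rescaled statistic PMA gave 12 calls, 6 higher and 6 lower, where 2.84% of all genes tested then passed, in place of 0.619%. The 2 differences between treatments became 1 at 0.01, 1 among 100 members and 9 with a correlation of 0.5 between the changes. The shares of all genes that pass at 0.01, at 0.1, with the 2-fold limit or with that correlation are not given here. Those counts have no background beside them. With every other row as a neighbour, upstream antisense rose to 19%, within in antisense to 37.5%, upstream in sense fell to 0.5% and apart to 7.0%. Upstream antisense was 7.0% among 100 members, and upstream in sense was 0 with a 1 kb window. Sites in the DMSO list reached 77.0% of members within 2 kb, and a site over the start itself was found for 30.5% in the DMSO and 32.5% in the dieldrin list, beside 41.4% and 40.6% of other genes of at least the same mean. Of these main results 56 other alternatives kept their value within 1.5 times or within the interval, those without members in near-identical copies included. For the calls, that value is the count in both directions together, and its split could move. Without pseudogene and protein-coding types (152 members), 0 were higher and 5 lower with dieldrin, since both rises were in pseudogenes. With all clone-library prefixes, 1 was higher and 8 lower. Of all genes tested, 1.28% were higher and 1.02% lower. Adjusted over every gene with a p-value, RP11-611L7.1 had 0.110 with dieldrin and RP11-324I22.4 had 0.120 with PMA, and neither then passed. The causes were not tested. A stricter cut of the site lists by score was not run, since they hold none. Depth per library is unknown and limits every call on members of low mean.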

Other observations

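The 200 clone-named genes just below the members, with means of 149 to 345 counts, had 17 calls with dieldrin, 4 higher and 13 lower, and 3 with PMA, all lower, against 7 and 3 among the members. Over all 9825 clone-named genes 2384 were tested with dieldrin and 44 passed, 16 higher and 28 lower, and 1917 were tested with PMA and 11 passed, 4 higher and 7 lower. Of all genes tested, 2.30% passed with dieldrin, 1.28% higher and 1.02% lower. With PMA the share was 0.619%, 0.528% higher and 0.0908% lower. The difference between these rank ranges was not tested.

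PRKACB-DT (RP11-486G15.2), which starts 131 bases upstream of PRKACB, the gene of a catalytic subunit of protein kinase A, stood at 442 counts in DMSO, 313 with dieldrin and 325 with PMA. Its unshrunken log2 changes of -0.50 (adjusted p = 0.0674) and -0.44 (adjusted p = 0.378) did not pass in the authors' deposited table. RP11-290D2.6 starts 2430 bases upstream of and antisense to the small nucleolar RNA gene SNORA31, and it also overlaps another gene on the opposite strand. It stood at 1240, 1693 and 1857 counts, and neither change passed.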
